A study of Mus musculus with 12 samples.

Results

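The interaction of genotype and diet was measured across 12 of the 12 RNA-seq libraries of the series, all of GFP-positive cells sorted as neural stem cells (NSCs) from the subventricular zone (SVZ) of the adult mouse brain. For each gene it is the diet response in Gli1-Het NSCs minus the diet response in Gli1-Null NSCs, on the log2 scale, so that a positive value means a more positive response to cuprizone in Gli1-Het NSCs. It was tested for 17623 of the 37991 genes counted, those with enough reads. The 4 groups of 3 libraries were Gli1-Null on cuprizone, Gli1-Null on the control diet, Gli1-Het on cuprizone and Gli1-Het on the control diet. Gli1-Null mice were Gli1CreERT2/CreERT2;RCEfx/fx and lacked Gli1 in every cell, and Gli1-Het mice were Gli1CreERT2/+;RCEfx/fx, both on C57BL/6. CreERT2 is knocked into the Gli1 locus, so every mouse, controls included, lacked at least 1 copy of Gli1, and the same promoter drove the recombinase that switched on GFP. All mice received 5 mg of tamoxifen on alternate days, 4 injections in all, from 10 weeks of age. Cuprizone was given at 0.2% in the chow for 3 weeks, and controls stayed on normal chow. Each library pooled 2 brains, 1 male and 1 female, so the p-values measure the spread between such pools.

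Gli1 is a transcription factor that the Hedgehog pathway switches on and that raises Hedgehog target genes in turn. Cells that express it in the SVZ divide slowly and act as NSCs, and they move to white matter when myelin is lost. Cuprizone chelates copper and kills oligodendrocytes, the cells that make myelin. Cells of many tissues answer a shortage of amino acids or misfolded protein with the integrated stress response, in which the factor ATF4 switches on amino acid transporters, enzymes of amino acid synthesis and tRNA synthetases.

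The libraries held between 13752801 and 32468063 reads in genes. Gli1 (chr10:127329882-127341974, GRCm38, minus strand) was at 0.650, 0.471 and 0.761 CPM, the reads of a gene scaled to the library's total after TMM adjustment, in Gli1-Null NSCs on cuprizone and at 0.365, 0.389 and 0.295 CPM in Gli1-Null NSCs on the control diet. It was at 21.1, 0.820 and 3.80 CPM in Gli1-Het NSCs on cuprizone and at 8.66, 18.1 and 17.4 CPM in Gli1-Het NSCs on the control diet. The library labelled Gli1-Het cuprizone replicate 2 thus had a Gli1 level close to that of the Gli1-Null libraries, and replicate 3 lay between. The study reports that genotypes were checked again by PCR of tail tissue, and the cause of the low level was not tested. The Gli1-Het cuprizone libraries also stood apart from each other over all genes: 13.7%, 36.9% and 25.5% of genes in replicates 1, 2 and 3 were more than 2-fold away from the mean of their control libraries, against 10.0%, 9.20% and 8.20% in the Gli1-Null cuprizone libraries. The median SD of a gene over 3 libraries was 0.38 in Gli1-Het and 0.13 in Gli1-Null NSCs on cuprizone (log2 CPM). Many values below are therefore also given without the library labelled Gli1-Het cuprizone replicate 2. A value given only with it may still rest on it. The 4 libraries whose labels carry a sample number under 10 are all Gli1-Het, replicates 2 and 3 of each diet, and what that number stands for is not given in the sources used here.

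No gene passed the test of the interaction (0 of 17623, 0%, at an adjusted p under 0.05 by the quasi-likelihood test of edgeR), and the smallest adjusted p was 0.323. At an unadjusted p under 0.05, 1591 genes (9.03%) differed, 999 of them (5.67%) with a more positive response in Gli1-Het and 592 (3.36%) with a more negative one. DESeq2 called 62 genes (0.352%), 46 positive (0.261%) and 16 negative (0.0908%). The edgeR count depended on 1 library. Without Gli1-Het cuprizone replicate 1 it was 1615 genes, 625 positive and 990 negative, and without any other single library it was 0. Gli1-Het cuprizone replicate 1 held 15068778 reads in genes, against 29879800 in replicate 2 and 14059223 in replicate 3. The first of these libraries had, per the study, the lowest RNA concentration and RNA integrity number of the series. The study also reports the fewest sorted cells for that group. Whether RNA quality, cell number or read depth bears on the count was not tested.

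The diet responses were called for unequal numbers of genes. Cuprizone changed 638 genes in Gli1-Null NSCs (3.62%, 594 or 3.37% higher and 44 or 0.25% lower) and 5995 in Gli1-Het NSCs (34%, 3306 or 18.8% higher and 2689 or 15.3% lower), by edgeR at an adjusted p under 0.05. Those 2 counts do not test the difference, which is the interaction above. Both rest on 1 estimate of the spread per gene over all 12 libraries, so the spread among Gli1-Het libraries bears on the Gli1-Null count. The Gli1-Null count was 1287 without Gli1-Het cuprizone replicate 1 and 1927 without the library labelled replicate 2. The Gli1-Het count was then 8403 and 4835. Of the 638 genes, 584 (91.5%) were also called in Gli1-Het NSCs in the same direction, which is 9.74% of the genes called there. The sign of the response was the same in both genotypes for 636 of the 638 genes called in Gli1-Null and for 95.1% of those called in Gli1-Het, against 78.3% of all genes tested. Across genes, the 2 responses correlated with a Pearson r of 0.62 and a Spearman rho of 0.68 (17623 genes, which are not independent replicates). Genes called higher in Gli1-Null NSCs had a median log2 fold change of 0.98 there and of 1.11 in Gli1-Het NSCs, whereas genes called higher in Gli1-Het NSCs had medians of 0.50 in Gli1-Null and 1.02 in Gli1-Het. Genes called lower in Gli1-Het NSCs had medians of −0.33 in Gli1-Null and −0.87 in Gli1-Het, and the 44 genes called lower in Gli1-Null NSCs had medians of −1.08 there and −0.82 in Gli1-Het.

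**Figure D1:**
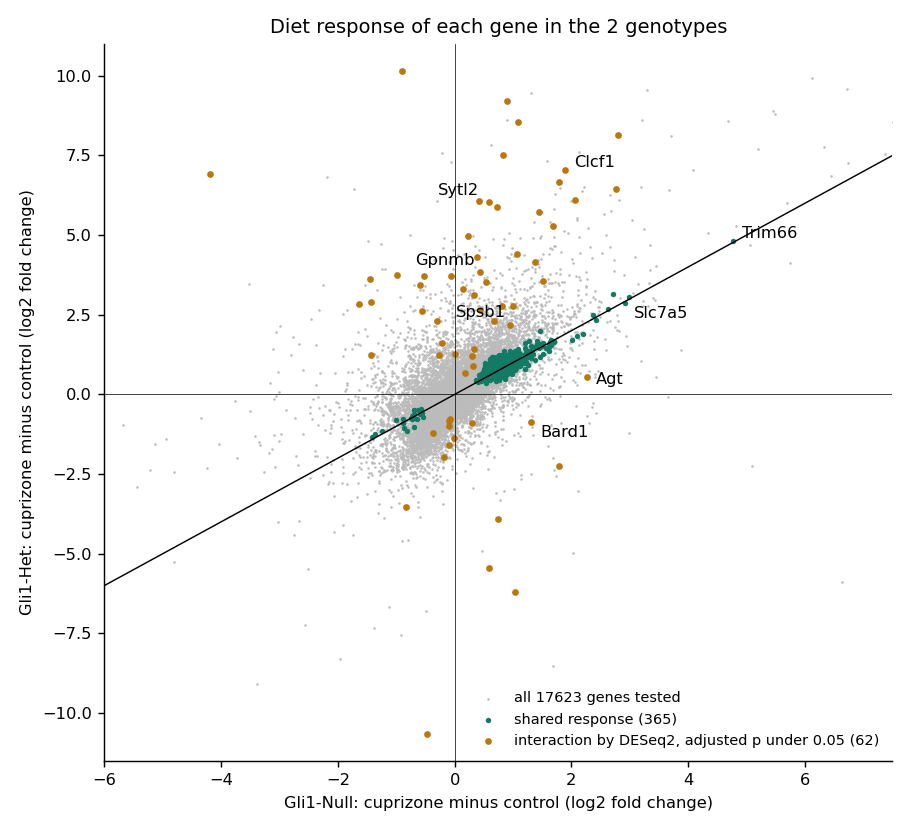
The log2 fold change on cuprizone in Gli1-Null NSCs (horizontal axis) is plotted against that in Gli1-Het NSCs (vertical axis) for the genes tested, 4 of which lie outside the axes. The diagonal marks equal responses: the 365 genes with a shared response lie along it, and 56 of the 62 genes called by DESeq2 were called by edgeR in Gli1-Het and not in Gli1-Null.

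A missed p does not show an equal response, so a response was called shared only where a gene passed in both genotypes in 1 direction and the 95% interval of the difference lay within 2-fold either way. This held for 365 genes (2.07% of those tested), 344 higher (1.95%) and 21 lower (0.119%). The interval of the difference lay within 2-fold for 8003 genes in all (45.4%), a count that does not require a call in either genotype. Just inside the bound were Lhfp and Isoc2b, with intervals reaching 0.995 and 0.997 on the log2 scale, and just outside it were Ltbr and Gyg, both reaching 1.002. The count of shared genes was 77 without Gli1-Null cuprizone replicate 1 and 1166 without the library labelled Gli1-Het cuprizone replicate 2.

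Among the shared genes that rose, amino acid transporters were among the largest. Slc7a5, which carries large neutral amino acids (chr8:121881150-121907694, minus strand), was at 1315, 948 and 1092 CPM in Gli1-Null NSCs on cuprizone, against 149, 153 and 144 CPM in Gli1-Null controls. It was at 1069, 903 and 1278 CPM in Gli1-Het NSCs on cuprizone, against 176, 137 and 132 CPM in Gli1-Het controls. The diets did not overlap in either genotype, and the log2 fold changes were 2.91 (standard error, SE, 0.180) in Gli1-Null and 2.87 (SE 0.180) in Gli1-Het, both called by edgeR (adjusted p = 1.84e-05 and 1.11e-05). The difference was −0.05, with a 95% interval of −0.56 to 0.47. Slc7a11, the cystine-glutamate exchanger, was at 322, 227 and 241 CPM in Gli1-Null NSCs on cuprizone against 43.9, 45.9 and 38.0 in their controls, and at 234, 320 and 293 CPM in Gli1-Het NSCs on cuprizone against 33.6, 45.3 and 54.2 in theirs. Its responses differed by 0.04 (interval −0.55 to 0.64). Slc7a3, a transporter of arginine and lysine, rose by 2.98 in Gli1-Null and 3.07 in Gli1-Het on the log2 scale, and Slc6a9, the glycine transporter, by 2.1 and 1.82.

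Of 12 amino acid transporters in the list, 9 rose in Gli1-Null NSCs and the count was also 9 in Gli1-Het NSCs. Of all genes, 3.37% rose in Gli1-Null and 18.8% in Gli1-Het. The response was shared within 2-fold for 7 of the 12 transporters, against 2.07% of all genes. The median log2 fold change of the list was 1.86 in Gli1-Null and 1.73 in Gli1-Het, against −0.02 and 0.02 over all genes tested, and the median difference was −0.002. Slc3a2, the heavy chain that pairs with Slc7a5, lay just outside the bound: it rose by 2.05 in Gli1-Null and 2.62 in Gli1-Het, a difference of 0.57 with an interval of 0.01 to 1.13.

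The gene with the largest shared rise was Trim66, a chromatin reader best known from the testis (chr7:109449006-109508134, minus strand). It was at 26.1, 24.2 and 19.1 CPM in Gli1-Null NSCs on cuprizone, against 0.895, 0.908 and 0.736 CPM in Gli1-Null controls. It was at 26.2, 16.7 and 24 CPM in Gli1-Het NSCs on cuprizone, against 0.873, 0.707 and 0.814 CPM in Gli1-Het controls. The 2 genotypes overlapped on each diet, and the log2 fold changes were 4.76 (SE 0.239) and 4.80 (SE 0.246), with a difference of 0.04 (interval −0.64 to 0.73). Cyb5r1, an endoplasmic reticulum reductase, rose by 2.72 in Gli1-Null and 3.14 in Gli1-Het. Angptl6, a secreted angiopoietin-like protein, was the 1 gene of the 12 named rising shared genes with an unadjusted interaction p under 0.05: it rose by 1.46 in Gli1-Null and 1.98 in Gli1-Het, and its difference of 0.52 had an interval of 0.08 to 0.96.

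**Figure D2:**
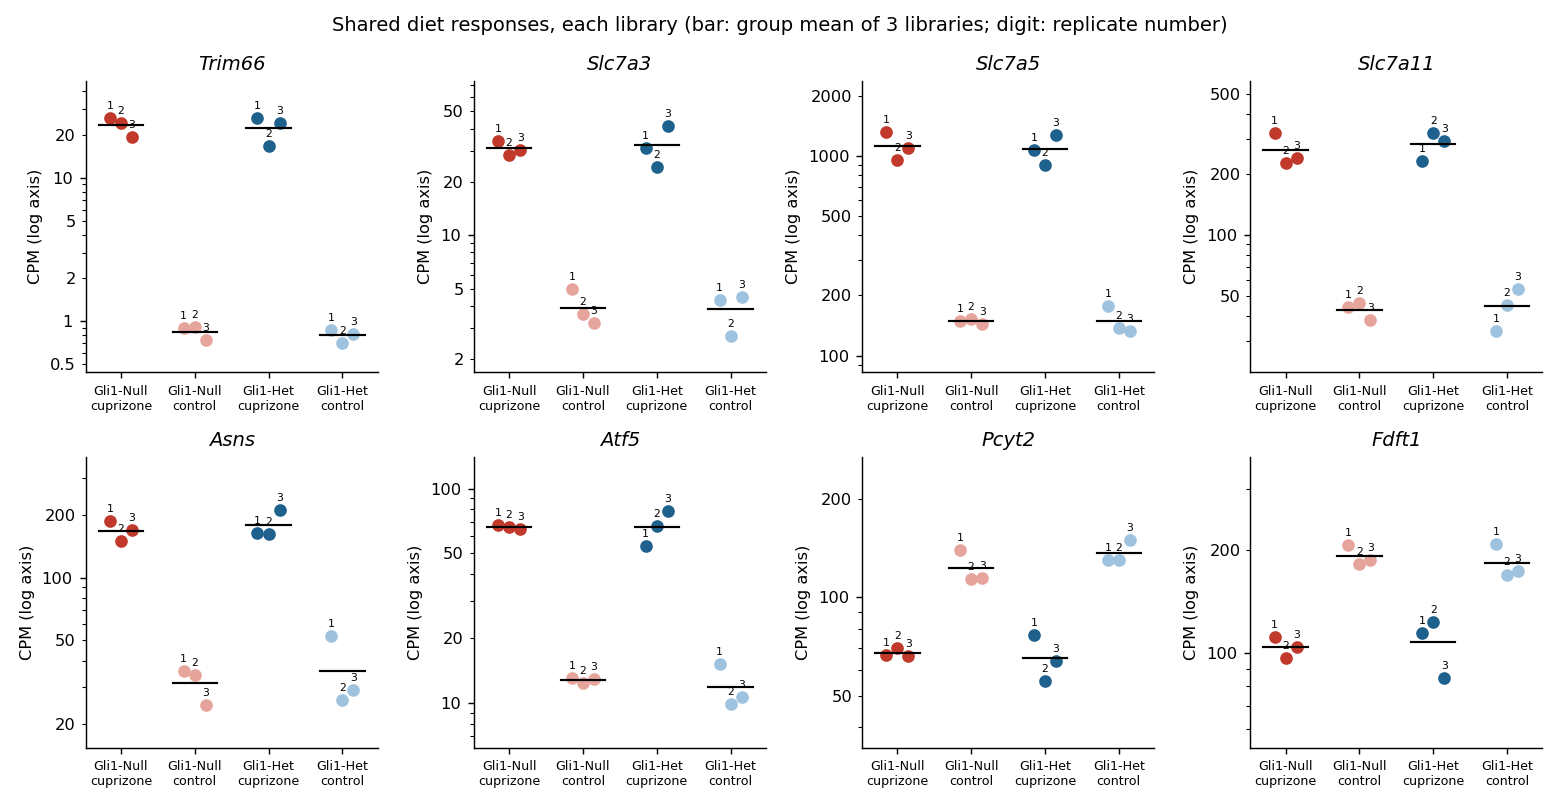
Each panel shows 1 gene in the 12 libraries as CPM on a log axis, with a bar at each group mean. For Trim66, Slc7a3, Slc7a5, Slc7a11, Asns and Atf5 the cuprizone libraries of both genotypes lie together above all control libraries, and for Pcyt2 and Fdft1 they lie below them.

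Enzymes that make amino acids and charge tRNAs also rose in both genotypes, for 8 of 12 and 9 of 20 genes listed (3.37% of all genes rose in Gli1-Null and 18.8% in Gli1-Het). Asns, which makes asparagine, was at 186, 150 and 169 CPM in Gli1-Null NSCs on cuprizone against 35.7, 34.0 and 24.5 in their controls, and at 163, 162 and 210 CPM in Gli1-Het NSCs on cuprizone against 52.3, 25.9 and 28.8 in theirs. Its log2 fold changes were 2.42 (SE 0.254) and 2.33 (SE 0.254), with a difference of −0.09 (interval −0.84 to 0.66). Of 12 genes of serine, one-carbon and asparagine synthesis, 9 rose in Gli1-Null and the count was also 9 in Gli1-Het, with 6 shared within 2-fold. Psat1 and Phgdh, enzymes of serine synthesis, rose by 1.44 and 0.93 in Gli1-Null and by 1.61 and 0.94 in Gli1-Het. Of 20 cytosolic tRNA synthetases, 9 rose in Gli1-Null and 13 in Gli1-Het, and the response was shared for all 9. Eprs, which charges glutamate and proline, rose by 1.26 and 1.24, a difference of −0.02 with an interval of −0.35 to 0.31. Qars, which charges glutamine, rose by 0.68 in Gli1-Het, and its change of 0.17 in Gli1-Null did not pass. DESeq2 called the difference of 0.51 (adjusted p = 0.0447) and edgeR did not (adjusted p = 0.543). The interval of that difference, 0.21 to 0.81, lay within 2-fold.

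The factors of the integrated stress response and genes they act on made up another list. Of its 19 measured genes, 14 rose in Gli1-Null and 18 in Gli1-Het (3.37% and 18.8% of all genes), 5 of them with a shared response. Atf5 was at 67.3, 66.4 and 64.9 CPM in Gli1-Null NSCs on cuprizone against 13.1, 12.4 and 13.0 in their controls, and at 54.1, 66.8 and 78.1 CPM in Gli1-Het NSCs on cuprizone against 15.2, 9.90 and 10.6 in theirs, a difference in response of 0.12 (interval −0.41 to 0.65). Trib3, an inhibitor of ATF4, rose by 6.44 in Gli1-Null and 6.87 in Gli1-Het, and Nupr1, a nuclear protein of stressed cells, by 3.30 and 2.78. The intervals of both differences reached beyond 2-fold, so neither equality nor a difference was shown. Ddit3, which encodes CHOP, rose by 1.37 in Gli1-Null and 2.45 in Gli1-Het. Its Gli1-Het cuprizone libraries were at 67.3, 240 and 108 CPM, and its difference of 1.08 was 0.41 without the library labelled replicate 2. Cebpb, a factor of the same response, was at 92.2, 67.2 and 61.8 CPM in Gli1-Null NSCs on cuprizone and at 89.3, 299 and 171 CPM in Gli1-Het NSCs on cuprizone, so replicate 1 lay within the Gli1-Null range and the others above it.

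ATF4 binds DNA at C/EBP-ATF response elements, whose core letters are TGATGNAA. These letters, on either strand, were present in the 300 bases around the start (250 before to 50 after) of 20 of 256 shared rising genes with a promoter in the RefSeq table (7.81%), and in 330 of 11805 genes tested (2.8%). Among the named genes, 2 of 9 shared rising genes held them, against 0 of 5 with a positive and 0 of 10 with a negative interaction. The 250 bases before the start of those 2 genes are shown for their placement (RefSeq, GRCm38.p6, both on the minus strand, at chr6:7693210-7693459 for Asns and chr3:50443614-50443863 for Slc7a11, with the core letters of either orientation in capitals):
Asns: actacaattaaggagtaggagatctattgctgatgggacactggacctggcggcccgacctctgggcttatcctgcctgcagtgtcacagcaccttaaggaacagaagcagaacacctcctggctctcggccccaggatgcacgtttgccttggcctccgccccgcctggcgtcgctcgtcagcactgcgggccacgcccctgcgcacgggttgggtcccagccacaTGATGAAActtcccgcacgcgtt
Slc7a11: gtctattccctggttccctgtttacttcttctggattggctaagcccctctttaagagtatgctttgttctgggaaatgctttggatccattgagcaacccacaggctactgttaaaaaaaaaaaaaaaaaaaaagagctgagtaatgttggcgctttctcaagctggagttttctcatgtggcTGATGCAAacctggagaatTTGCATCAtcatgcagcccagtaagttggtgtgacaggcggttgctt
Asns held 1 match, 23 bases before the start, and Slc7a11 held 2 in opposite orientation, 66 and 47 bases before it. A match is a run of letters and was not tested as a binding site.

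Fewer genes fell in both genotypes. Pcyt2, an enzyme of phosphatidylethanolamine synthesis, was at 66.5, 69.9 and 66.0 CPM in Gli1-Null NSCs on cuprizone against 139, 114 and 115 in their controls, and at 76.5, 55.4 and 63.9 CPM in Gli1-Het NSCs on cuprizone against 130, 130 and 149 in theirs. It fell by 0.86 and 1.06 on the log2 scale, a difference of −0.20 with an interval of −0.61 to 0.21. Fdft1, the squalene synthase of cholesterol synthesis, fell by 0.88 in Gli1-Null and 0.77 in Gli1-Het. Of 17 measured cholesterol synthesis genes, 3 fell in each genotype and all 3 were shared (0.25% and 15.3% of all genes fell in Gli1-Null and Gli1-Het), among them Fdft1 and Cyp51, a sterol demethylase. Without the library labelled Gli1-Het cuprizone replicate 2, 8 fell in Gli1-Het, and the median difference of the list was −0.03, against 0.42 with it. Wsb1, an adaptor of ubiquitin ligases, fell by 0.82 and 1.14, and Zfhx4, a zinc finger homeobox factor, by 0.88 and 0.89.

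The genes with the smallest interaction p-values lay in the other class, of which edgeR called none and DESeq2 62. Gpnmb, a membrane glycoprotein of phagocytes and lysosome-rich cells (chr6:49036546-49070929, plus strand), came first. It was at 2.41, 1.56 and 2.16 CPM in Gli1-Null NSCs on cuprizone, against 1.29, 1.78 and 1.44 CPM in Gli1-Null controls. It was at 20.7, 25.0 and 18.9 CPM in Gli1-Het NSCs on cuprizone, against 1.46, 0.624 and 2.37 CPM in Gli1-Het controls. All 3 Gli1-Het cuprizone libraries lay above the other 9, including replicate 1. The difference was 3.41 (interval 2.25 to 4.56, adjusted p = 0.323 by edgeR and 1.59e-06 by DESeq2), and it was 3.27 without the library labelled Gli1-Het cuprizone replicate 2.

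Spsb1, an adaptor of ubiquitin ligases, rose in both genotypes. It was at 26.0, 31.0 and 31.0 CPM in Gli1-Null NSCs on cuprizone against 16.5, 15.3 and 13.9 in their controls, and at 43.1, 58.1 and 42.0 CPM in Gli1-Het NSCs on cuprizone against 8.51, 10.4 and 12.3 in theirs. The log2 fold changes were 0.95 and 2.19, with a difference of 1.25 (interval 0.71 to 1.79). DESeq2 called that difference (adjusted p = 0.00654) and edgeR did not (adjusted p = 0.543). Cln8, a cargo receptor for lysosomal enzymes, was at 78.4, 72.9 and 76.5 CPM in Gli1-Null NSCs on cuprizone against 60.3, 61.1 and 61.4 in their controls, and at 108, 128 and 120 CPM in Gli1-Het NSCs on cuprizone against 63.9, 63.2 and 64.2 in theirs. Its difference was small but narrow, at 0.58 (interval 0.29 to 0.86).

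For the remaining genes with positive values the Gli1-Het cuprizone libraries spread widely. Clcf1, a cytokine of the interleukin 6 family, was at 1.37, 2.43 and 1.78 CPM in Gli1-Null NSCs on cuprizone against 0.298, 0.357 and 0.847 in their controls, and at 6.70, 75.1 and 32.0 CPM in Gli1-Het NSCs on cuprizone against 0.291, 0.166 and 0.389 in theirs. Igfbp2, which binds insulin-like growth factors, was at 14.8, 9.36 and 12.6 CPM in Gli1-Null NSCs on cuprizone and at 27.7, 163 and 117 CPM in Gli1-Het NSCs on cuprizone. Sytl2, of vesicle transport, was at 0.585, 0.653 and 1.01 CPM in Gli1-Null NSCs on cuprizone and at 1.82, 17.5 and 10.6 CPM in Gli1-Het NSCs on cuprizone. In each, replicate 1 was the lowest of the 3 and still above every other library. The differences were 5.14 for Clcf1, 3.18 for Igfbp2 and 5.46 for Sytl2, and 4.15, 2.66 and 4.74 without the library labelled Gli1-Het cuprizone replicate 2.

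On the negative side, Bard1, the partner of BRCA1 in DNA repair (chr1:71027498-71103146, minus strand), was the 1 gene called in opposite directions by the diet. It was at 20.9, 19.8 and 11.2 CPM in Gli1-Null NSCs on cuprizone, against 8.25, 5.39 and 7.33 CPM in Gli1-Null controls. It was at 5.14, 4.72 and 5.77 CPM in Gli1-Het NSCs on cuprizone, against 8.29, 12.4 and 7.85 CPM in Gli1-Het controls. The diets did not overlap in either genotype. It rose by 1.31 in Gli1-Null (SE 0.273, adjusted p = 0.0252 by edgeR) and fell by 0.87 in Gli1-Het (SE 0.277, adjusted p = 0.0324 by edgeR). The difference was −2.18 (interval −3.03 to −1.33, adjusted p = 0.543 by edgeR and 0.000596 by DESeq2), and −2.12 without the library labelled Gli1-Het cuprizone replicate 2.

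Agt, the precursor of angiotensin made by astrocytes, rose in Gli1-Null NSCs. It was at 126, 258 and 142 CPM there on cuprizone against 34.0, 30.1 and 44.6 on the control diet, and at 84.9, 70.8 and 105 CPM in Gli1-Het NSCs on cuprizone against 49.2, 69.3 and 60.4 on the control diet. The log2 fold changes were 2.27 (adjusted p = 0.00128 by edgeR) and 0.54 (adjusted p = 0.129 by edgeR), with a difference of −1.73 (interval −2.55 to −0.91). Mapk8, which encodes the kinase JNK1, was at 17.5, 15.9 and 15.8 CPM in Gli1-Null NSCs on cuprizone against 18.3, 23.7 and 21.3 in their controls, and at 9.76, 8.29 and 9.78 CPM in Gli1-Het NSCs on cuprizone against 21.5, 22.5 and 20.4 in theirs. The 3 Gli1-Het cuprizone libraries agreed closely for Mapk8 and lay below the other 9. Zfp9 and Zfp697, zinc finger genes, Ap2b1, a subunit of the clathrin adaptor, and Strn4, a striatin scaffold, fell by 0.99, 1.36, 0.84 and 0.79 in Gli1-Het, and their changes of −0.10, −0.01, −0.10 and −0.07 in Gli1-Null did not pass. Meis1, a homeobox factor, and Igf1r, the receptor for insulin-like growth factor 1, fell by 0.81 and 0.69 in Gli1-Het, and DESeq2 called neither difference (adjusted p = 0.0716 and 0.087).

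**Figure D3:**
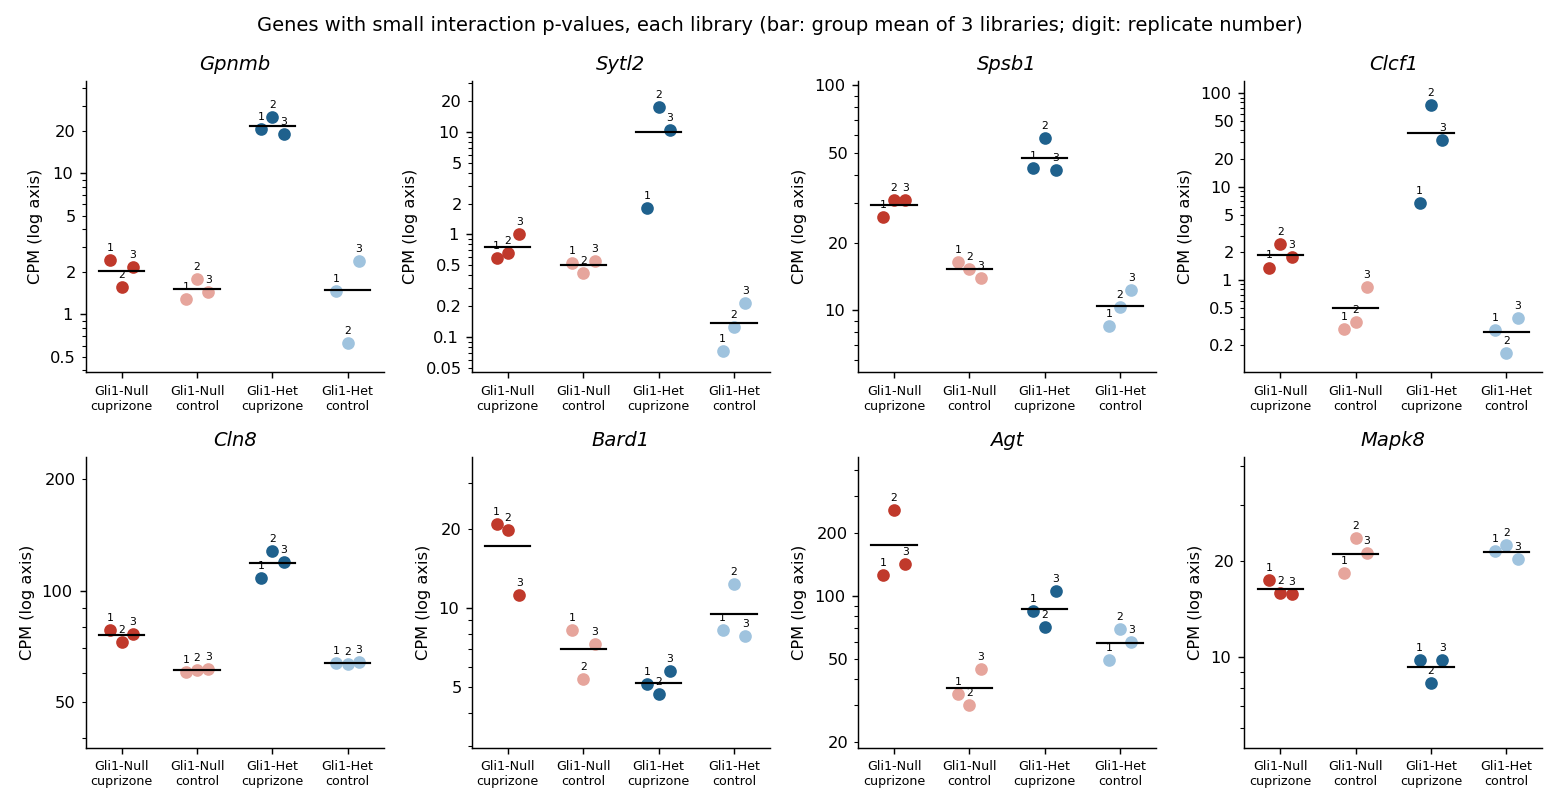
Each panel shows 1 gene in the 12 libraries as CPM on a log axis, with a bar at each group mean. The Gli1-Het cuprizone libraries stand above all others for Gpnmb, Sytl2, Spsb1, Clcf1 and Cln8 and below all others for Mapk8, and Bard1 and Agt have their highest mean in Gli1-Null cuprizone libraries.

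**Figure D4:**
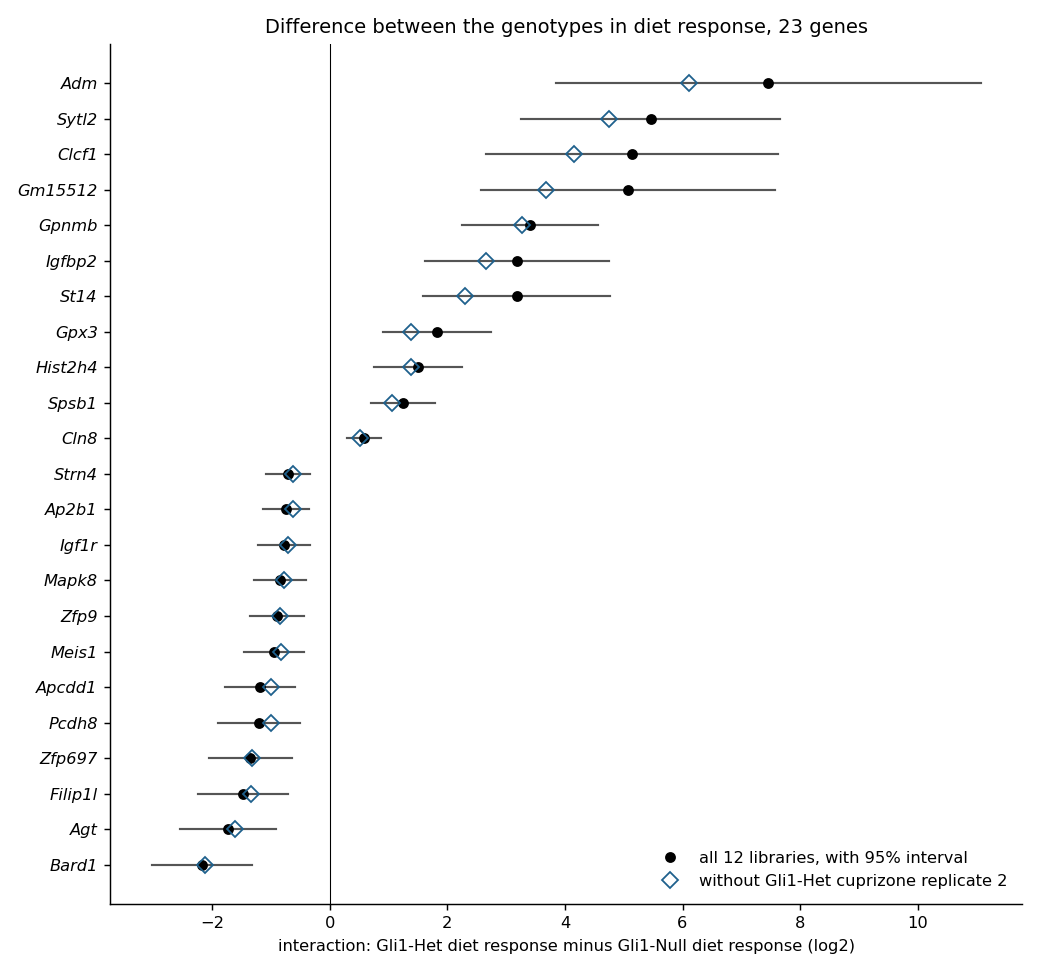
The Gli1-Het diet response minus the Gli1-Null diet response (log2) is shown for 11 genes with a positive and 12 with a negative value, chosen for the smallest p, with its 95% interval and, as open diamonds, the value without the library labelled Gli1-Het cuprizone replicate 2. Every diamond keeps the sign of its gene, from 6.11 for Adm to −2.12 for Bard1.

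In several gene groups the responses differed in size between the Gli1-Het cuprizone libraries. Of 20 targets of p53, the factor that halts division after DNA damage, 0 rose in Gli1-Null NSCs and 15 in Gli1-Het NSCs by edgeR, against 3.37% and 18.8% of all genes. The count in Gli1-Null was 5 without the library labelled Gli1-Het cuprizone replicate 2 and 3 without replicate 1. The interaction had an unadjusted p under 0.05 for 15 of the 20 (edgeR, 0 called), all positive, against 5.67% of all genes. DESeq2 called 2, Gadd45a and Pmaip1, whose differences by edgeR were 2.99 and 11.1. Without the library labelled Gli1-Het cuprizone replicate 2 these were 1.87 and 7.31. Cdkn1a, the cell cycle inhibitor p21, was at 151, 131 and 140 CPM in Gli1-Null NSCs on cuprizone against 29.6, 29.2 and 25.2 in their controls, and at 181, 1614 and 407 CPM in Gli1-Het NSCs on cuprizone against 36.5, 28.4 and 24 in theirs. Its log2 fold change of 2.33 in Gli1-Null narrowly missed the threshold (adjusted p = 0.0502 by edgeR). The median difference over the list was 1.71, against −0.001 over all genes, and 0.49 without the library labelled Gli1-Het cuprizone replicate 2. Per library, the list's median response was 0.68, 3.09 and 1.21 in Gli1-Het replicates 1, 2 and 3, and 0.24, 0.19 and 0.24 in the Gli1-Null cuprizone libraries.

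Annexins, S100 proteins and related actin-binding genes were graded in the same order. Of 16, 1 rose in Gli1-Null (Tagln2) and 15 in Gli1-Het, against 3.37% and 18.8% of all genes, and the count in Gli1-Null was 7 without the library labelled Gli1-Het cuprizone replicate 2 and 6 without replicate 1. The interaction p was under 0.05 for 12 of the 16, all positive, against 5.67% of all genes. Of the 16, edgeR called 0 and DESeq2 called 3. The median difference of 1.77 was 0.89 without the library labelled Gli1-Het cuprizone replicate 2. Anxa3 was at 1.76, 2.86 and 3.17 CPM in Gli1-Null NSCs on cuprizone and at 11.1, 270 and 107 CPM in Gli1-Het NSCs on cuprizone. Of 16 endoplasmic reticulum chaperones, 0 rose in Gli1-Null and 14 in Gli1-Het, against 3.37% and 18.8% of all genes. The interaction p was under 0.05 for 6 of them, all positive, against 5.67% of all genes (edgeR, 0 called, and 0 by DESeq2). Hspa5, the chaperone BiP, changed by 0.57 in Gli1-Null (adjusted p = 0.534 by edgeR) and rose by 1.93 in Gli1-Het. The median difference of that list was 0.74, and 0.33 without the same library. Of 13 genes of interleukin 6 family signalling, 2 rose in Gli1-Null and 11 in Gli1-Het, against 3.37% and 18.8% of all genes. The count in Gli1-Null was 6 without the library labelled Gli1-Het cuprizone replicate 2 and 4 without replicate 1. For 5 of the 13, all positive, the interaction p was under 0.05 (edgeR, 0 called, and 1 by DESeq2), against 5.67% of all genes. The median difference was 0.66, and 0.37 without the library labelled replicate 2. The metallothioneins Mt1, Mt2 and Mt3, which bind copper and zinc, rose by 1.61, 1.73 and 1.39 in Gli1-Het, and their changes of 0.39, 0.43 and 0.58 in Gli1-Null did not pass. Their differences of 1.22, 1.31 and 0.81 were not called by edgeR (adjusted p = 0.543 each) or DESeq2.

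**Figure D5:**
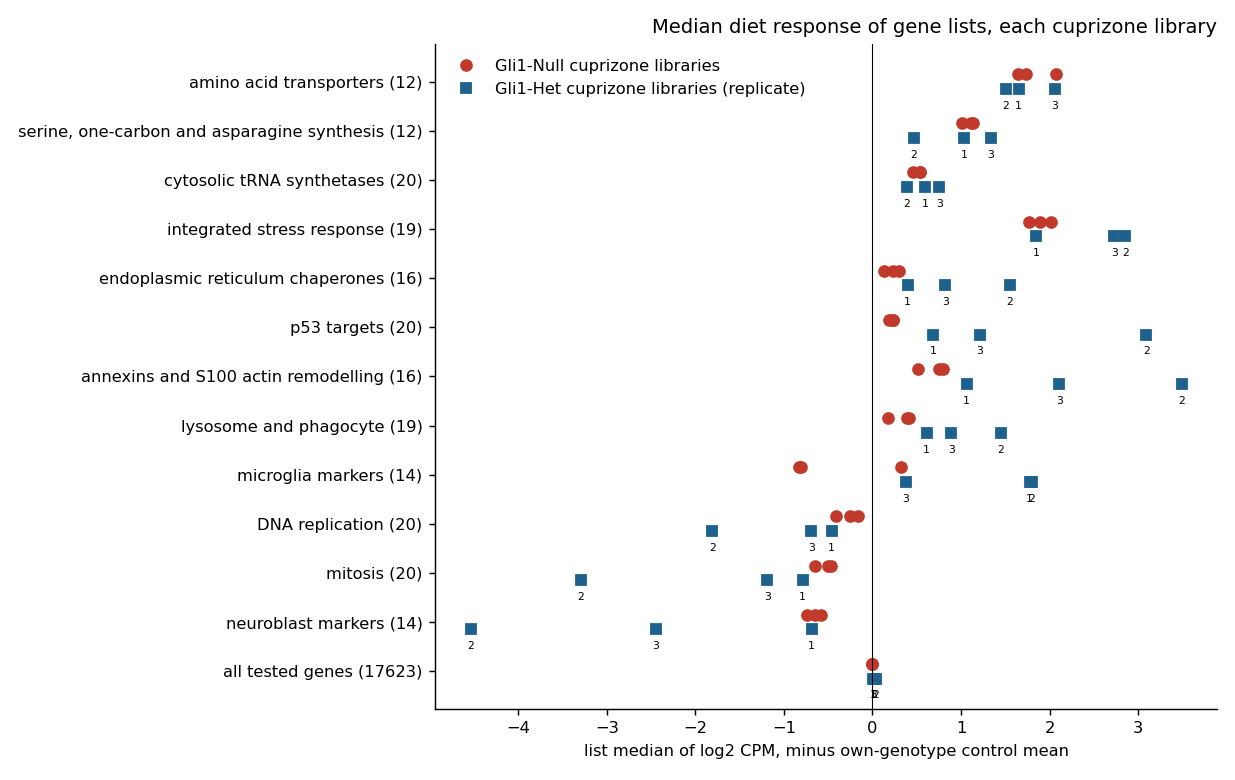
The median log2 response of each gene list is shown for the 3 cuprizone libraries of each genotype, against the mean of that genotype's controls, with the number of measured genes in brackets. The genotypes overlap for amino acid transporters, at 1.65 to 2.07 in Gli1-Null and 1.5 to 2.06 in Gli1-Het, whereas for p53 targets, DNA replication, mitosis and neuroblast markers Gli1-Het replicate 1 lies nearest the Gli1-Null libraries and replicate 2 farthest from them.

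Genes of dividing cells and of neuroblasts, the young neurons that NSCs produce, fell in Gli1-Het NSCs. Of 20 mitosis genes 18 fell in Gli1-Het and 0 in Gli1-Null, and of 20 DNA replication genes 16 fell in Gli1-Het and 0 in Gli1-Null, against 15.3% and 0.25% of all genes. Without Gli1-Het cuprizone replicate 3 both counts in Gli1-Het were 10. Both were 20 without replicate 1, and they were 20 for mitosis and 17 for DNA replication without the library labelled replicate 2. In these lists and among the neuroblast markers every difference was negative. The medians were −0.88 for mitosis, −0.55 for DNA replication and −1.215 for neuroblast markers. Without the library labelled Gli1-Het cuprizone replicate 2 they were −0.43, −0.31 and −0.71. Of these genes 0 had an interaction p under 0.05 by edgeR and DESeq2 called 0, so no difference between the genotypes was shown for them. Top2a, the topoisomerase of dividing cells, was at 434, 486 and 467 CPM in Gli1-Null NSCs on cuprizone against 593, 642 and 659 in their controls, and at 330, 56.9 and 241 CPM in Gli1-Het NSCs on cuprizone against 553, 694 and 645 in theirs. Of 14 neuroblast markers 12 fell in Gli1-Het and 0 in Gli1-Null, against the same shares of all genes. The count in Gli1-Het was 1 without replicate 3 on cuprizone, and 14 without replicate 1 or without replicate 2. Median responses were −0.69, −4.54 and −2.45 in Gli1-Het replicates 1, 2 and 3 and −0.65, −0.74 and −0.58 in Gli1-Null libraries. Dlx2, a homeobox factor of interneuron precursors, was at 644, 651 and 697 CPM in Gli1-Null NSCs on cuprizone and at 549, 50.6 and 250 CPM in Gli1-Het NSCs on cuprizone. In bulk libraries, fewer cells of a type and less RNA per cell cannot be told apart.

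Markers of other cell types moved with the groups, and their part in the differences was not tested. The summed level of 14 neuroblast markers was 4198 to 4641 CPM in Gli1-Null NSCs on cuprizone, 6623 to 6955 in Gli1-Null controls, 437 to 4054 in Gli1-Het NSCs on cuprizone and 5967 to 8251 in Gli1-Het controls. That of 14 microglia markers was 101.0 to 124 CPM in Gli1-Null NSCs on cuprizone, 69.6 to 97.6 in Gli1-Null controls, 163 to 221 in Gli1-Het NSCs on cuprizone and 75.0 to 95.2 in Gli1-Het controls. Of the 14, 1 rose in Gli1-Null and 7 in Gli1-Het, against 3.37% and 18.8% of all genes. The interaction p was under 0.05 for 8, all positive, against 5.67% of all genes (edgeR, 0 called, and 0 by DESeq2). All 14 differences were positive, with a median of 2.23, and 2.17 without the library labelled Gli1-Het cuprizone replicate 2. C1qb, a complement gene of microglia, was at 0.943, 0.218 and 1.46 CPM in Gli1-Null NSCs on cuprizone against 1.89, 0.649 and 1.33 in their controls, and at 8.66, 10.7 and 5.42 CPM in Gli1-Het NSCs on cuprizone against 1.02, 0.333 and 2.58 in theirs. The levels of C1qb were low, and the 3 Gli1-Het cuprizone libraries lay above the other 9, as they did for Gpnmb and Cd68, both of phagocytes. Cd68 was at 9.31, 28.9 and 8.52 CPM in Gli1-Het NSCs on cuprizone, and DESeq2 called its difference of 2.61 (adjusted p = 0.0366). That difference was 1.79 without the library labelled Gli1-Het cuprizone replicate 2. The 10 endothelial markers listed summed to 4.75 to 16.5 CPM in Gli1-Null NSCs on cuprizone, 2.95 to 8.76 in Gli1-Null controls, 1.63 to 11.7 in Gli1-Het NSCs on cuprizone and 14.6 to 15.7 in Gli1-Het controls. The median difference of the 9 that were tested was −3.0. No list had a marker at 0 in every library, and NSC markers summed to 7856 to 9444 CPM in Gli1-Null and 7990 to 11107 CPM in Gli1-Het NSCs on cuprizone.

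Within the Hedgehog pathway, the response was shared for the receptor component Smo, which rose by 0.78 in Gli1-Null and 0.63 in Gli1-Het (difference −0.15). Hhip, which binds and holds back Hedgehog ligands, rose by 1.65 in Gli1-Null and 1.55 in Gli1-Het, with an interval of the difference (−1.14 to 0.94) that reached beyond 2-fold. Of 14 measured genes of the pathway, 2 rose in Gli1-Null, and 6 rose and 1 fell in Gli1-Het. Of all genes, 3.37% rose in Gli1-Null, and 18.8% rose and 15.3% fell in Gli1-Het. In the pathway, 0 genes had an interaction p under 0.05 by edgeR or a call by DESeq2. Gli1 itself differed by −1.64 (interval −4.34 to 1.07), which was not called (adjusted p = 0.612 by edgeR). Without Gli1-Het cuprizone replicate 1 its difference was −3.59 and was called (adjusted p = 0.0224 by edgeR), and without the library labelled replicate 2 it was −1.09. Sox2, the stem cell factor, differed by −0.02 (interval −0.39 to 0.35), and its change passed in neither genotype.

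Of 28 genes that the study names, which it chose on these samples, 11 had a positive and 8 a negative difference at an unadjusted p under 0.05 by edgeR (0 called), against 5.67% and 3.36% of all genes, and DESeq2 called 7 and 5, against 0.261% and 0.0908%. They included Igfbp3, another binding protein of insulin-like growth factors, at 2.50, 8.23 and 5.01 CPM in Gli1-Null NSCs on cuprizone and at 26.2, 326 and 237 CPM in Gli1-Het NSCs on cuprizone, whose difference of 4.41 was not called (adjusted p = 0.135 by DESeq2). Gjd2, a neuronal gap junction gene, was at 2.15, 0.943 and 1.2 CPM in Gli1-Null NSCs on cuprizone and at 0.0651, 0 and 0 CPM in Gli1-Het NSCs on cuprizone, and DESeq2 called its difference (adjusted p = 0.00616).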

How the data were processed

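RNA-seq was done on 12 pools of sorted NSCs, 3 per group, and GEO's labels gave the groups. Per the submitters' processing notes, reads were checked with FastQC 0.11.5, aligned to mm10 with TopHat2 2.1.1 and counted with HTSeq 0.11.1, and DESeq2 1.12 was used. The sources used here do not give the strand setting or the annotation release. The authors deposited raw counts per gene, and a second sheet of signal values, which are the same counts that the authors divided by 1 size factor per library: they gave back whole reads for 100% of values (within 0.01), and these gave the same calls. In the count sheet, the first column named another gene than the count cell in 33998 rows, so the identifier inside the cell was used. Of 37991 genes, 32919 were named from GENCODE, 160 from the authors' sheet and 4912 not at all. The 5 rows with no gene were left out, of which reads in no feature were 54.5% to 58.4% of a library.

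Counts were fitted with edgeR 4.0.16 (R 4.3.3, TMM, quasi-likelihood F-test) with 1 mean per group over all 12 libraries, after the filter on low counts (minimum count 10). A prior count of 2 was used for log2 CPM values only. P-values were adjusted by Benjamini and Hochberg over all genes tested, with 0.05 as the threshold. A shared response was called in both genotypes in 1 direction with the 95% interval of the difference within −1 and 1 (log2). Named genes were Gli1, genes the study names, the 12 genes of each sign with the smallest interaction p at 5 CPM or more in 1 group, the 12 rising and 8 falling shared genes with the largest mean response, genes called in opposite directions, and in each list up to 4 with the smallest interaction p, up to 4 with the smallest mean diet p and those among the 2 highest in CPM. The genes beside the 2-fold bound were named for their place there. Members and lists were chosen with earlier results of these data known. DESeq2 1.42.0, limma 3.58.1 with library quality weights, other filters and scalings, a replicate block, terms for the label number and leaving out libraries were alternatives. Recovered reads, leaving out libraries in DESeq2 and list counts without Gli1-Het cuprizone libraries were added after seeing the data. The fit was tested on simulated data. A few genes that the rules select are not reported here.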

Additional observations from a re-analysis of the deposited data

Results flagged for a closer look

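For 3 of 65 named genes all cuprizone libraries of 1 genotype lay on one side of all control libraries of that genotype, and those of the other genotype lay on the opposite side. This held for 52 of all genes tested (0.295%), and the named genes include those chosen for the smallest p of the difference, so the count is a description. The values are log2 differences, Gli1-Het response minus Gli1-Null response. Bard1 differed by −2.18, and its cuprizone libraries were the higher in Gli1-Null and the lower in Gli1-Het. Apcdd1, a Wnt inhibitor, differed by −1.19. Gm15512, a gene without an assigned role here, differed by 5.07, and by 3.68 without the library labelled Gli1-Het cuprizone replicate 2. Its levels were low, at 0.390, 0.181 and 0.254 CPM in Gli1-Null NSCs on cuprizone. In Gli1-Het NSCs on cuprizone it was at 0.781, 11.8 and 3.38 CPM. The adjusted p of the difference was 0.543 for each of these genes by edgeR. By DESeq2, the responses of 62 genes differed between the genotypes, of which 61 had an unadjusted p under 0.05 by edgeR.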

How the results depend on the processing

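The edgeR count of interaction calls, 0, was also 0 with DESeq2's size factors, with no filter and with the replicate block. It was 62 with DESeq2, 2724 with limma and library quality weights, and 1 with a term for label numbers under 10. Without 1 library it was 0 to 1615, the highest without Gli1-Het cuprizone replicate 1. The limma weights of Gli1-Het cuprizone replicates 1, 2 and 3 were 0.277, 0.115 and 3.63. In the limma setting that group therefore rests mostly on replicate 3. DESeq2's 62 became 11 to 2873 without 1 library, the lowest without Gli1-Het control replicate 2 and the highest without Gli1-Het cuprizone replicate 1, which kept 61 of the 62, whereas without Gli1-Het cuprizone replicate 2 the count was 40 and 25 were kept. The calls in Gli1-Null, 638, were 1358 with DESeq2, 4634 with limma, 1124 with the label term, 4137 without the 4 libraries with label numbers under 10, and 141 to 1927 without 1 library. Those in Gli1-Het, 5995, were 10013 with limma, 2651 without the 4 libraries and 3230 to 8403 without 1. The mean response, with 6483 calls, had 10432 with limma. Shared responses, 365, were 698, 2537, 658 and 1207 under the same 4 settings (DESeq2, limma, label term, without the 4 libraries), 133 with a bound of 1.5-fold, and 77 to 1166 without 1 library. The count in Gli1-Null was 141 to 237 without any 1 Gli1-Null library, 402 without Gli1-Het control replicate 2, 1287 without Gli1-Het cuprizone replicate 1 and 1927 without replicate 2. That in Gli1-Het was 3230 without Gli1-Het control replicate 2 and 3905 without Gli1-Het cuprizone replicate 3. Shared responses were 77 to 133 without any 1 Gli1-Null library, 223 without Gli1-Het control replicate 2, 574 without Gli1-Het cuprizone replicate 1 and 1166 without replicate 2. The block on replicate numbers gave 400 calls in Gli1-Null and 229 shared responses. Same-numbered libraries correlated between −0.118 and 0.120, so the numbers do not pair them. Without the 4 libraries with label numbers under 10, the differences of Ddit3 (−0.020), Slc3a2 (−0.0056), Cdkn1a (−0.022) and Fosl1 (−0.25) changed sign. That setting keeps 1 Gli1-Het library per diet, which is assumed to vary like the Gli1-Null libraries. It changed the sign of 70 of 286 gene differences in all, the 4 named being those of the 112 with an unadjusted p under 0.05. No other setting changed the sign of any of the 112, and 0 to 18 of the 286 changed sign under each. The interaction passed for 34 of the 286 with DESeq2, 123 with limma and 110 without Gli1-Het cuprizone replicate 1. The causes were not tested.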

Other observations

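Markers of other cells were also measured, and their part in the differences was not tested. The shares of all genes that rose were 3.37% in Gli1-Null and 18.8% in Gli1-Het, and the shares that fell were 0.25% and 15.3%. Of 8 measured oligodendrocyte precursor markers 2 rose in Gli1-Null and 4 in Gli1-Het NSCs. The interaction p was under 0.05 by edgeR for 1, which was positive, against 5.67% of all genes (0 called, and 0 by DESeq2). All 10 precursor markers listed, tested or not, summed to 190 to 225 CPM in Gli1-Null NSCs on cuprizone, 76.0 to 105 CPM in Gli1-Null controls, 235 to 465 CPM in Gli1-Het NSCs on cuprizone and 74.1 to 109 CPM in Gli1-Het controls. Of 12 markers of myelinating oligodendrocytes 0 changed in Gli1-Null and 2 fell in Gli1-Het, with median responses of −0.90 and −1.58. Of 12 astrocyte markers 3 rose in Gli1-Null and 2 in Gli1-Het, and the median difference was −0.26, whereas 14 NSC markers had a median difference of −0.005. Of 12 ependymal markers, genes of the ciliated cells that line the ventricle, 1 rose in Gli1-Null and 6 in Gli1-Het. Of 19 lysosome and phagocyte genes 2 rose in Gli1-Null and 13 in Gli1-Het, with a median difference of 0.68, and 0.39 without the library labelled Gli1-Het cuprizone replicate 2. Of 20 cytosolic ribosomal protein genes 0 changed in Gli1-Null and 6 rose in Gli1-Het, and 0 did so without that library. Of 15 interferon-stimulated genes, 0 changed in Gli1-Null and 1 fell in Gli1-Het, and 14 of the 15 differences were positive with a median of 1.85, or 0.67 without that library. None of the 15 had an interaction p under 0.05 by edgeR, and DESeq2 called 0.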
